A study of Mus musculus with 10 samples.

Results

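Clustered histone genes were followed by RNA-seq in MC3T3-E1, a mouse line of pre-osteoblasts, from proliferation to mineralizing culture. The members were all genes whose GENCODE vM21 symbol begins with Hist1h, Hist2h, Hist3h or Hist4h. The annotation holds 70 such genes (6 H1, 20 H2A, 19 H2B, 12 H3 and 13 H4 genes), of which 56 lie on chromosome 13, 10 on chromosome 3, 3 on chromosome 11 and 1 on chromosome 6. Of these, 61 were among the 40620 genes of the count table, and the other 9, among them Hist2h2aa1, Hist2h2aa2 and Hist3h2a, were not analysed here. The cells were sampled as subconfluent cells in growth medium, as confluent cells at day 0, and after 24 h, 14 d and 21 d in differentiation medium, which held ascorbic acid (50 µg/ml) and β-glycerophosphate (10 mM). All 5 stages carry the same unmodified line, with 2 replicates each (A and B), 10 samples in all, and the labels do not say whether replicates came from separate cultures, so p-values measure the spread between these samples, which may be technical. Each sample had between 44736156 and 162939333 counts. By the index sequences in the column headers, the 6 early libraries (up to 24 h) form 1 set and the 4 late ones another, so that across these sets the stage and the library set cannot be told apart. Of 9 osteoblast markers 7 were called higher at 21 d than in subconfluent cells, beside 16.3% of all genes tested, among them Bglap, the gene of osteocalcin. Markers of macrophages and blood summed to between 17.4 and 25.9 CPM (counts scaled by a library total adjusted with TMM, edgeR's correction for library composition) in all 10 samples. Adipocyte markers summed to 4.69 and 5.33 CPM in subconfluent cells and 11.3 and 12.2 at 21 d, nearly all of it Cebpa, and their part in the results was not tested.

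Nucleosomes are built from the core histones H2A, H2B, H3 and H4, and the linker histone H1 binds where DNA enters and leaves them. Most clustered histone genes are replication-dependent: they are transcribed in S phase, when new DNA has to be packed, and their mRNAs end in a conserved stem-loop that is bound by the stem-loop binding protein Slbp, in place of a poly(A) tail. Some of the same genes can also give polyadenylated mRNAs, which persist outside S phase, and histone variants such as H3.3 are made from separate genes throughout the cell cycle. Whether the libraries were selected for poly(A) RNA is not given in the sources used here, and transcripts without a tail would be under-represented in such libraries. Together the members took only 0.0142% to 0.0304% of all counts in a sample, with the 4 lowest shares in the 14 d and 21 d libraries.

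The stem-loop and the sequence around it are shown for 4 genes called lower at 21 d than in subconfluent cells and 4 genes that were not, because the annotated 3′ ends of the members differ in what follows it. The capitals mark the stem-loop, 6 paired bases on each side of a loop of 4, and the sequences were read from GENCODE vM21 transcripts.
Hist1h3b: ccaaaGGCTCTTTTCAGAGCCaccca
Hist1h3c: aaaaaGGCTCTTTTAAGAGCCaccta
Hist1h4c: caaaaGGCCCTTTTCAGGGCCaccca
Hist1h2ag: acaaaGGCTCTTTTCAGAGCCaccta
Hist1h1c: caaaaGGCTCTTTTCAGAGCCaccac
Hist1h1d: caaacGGCTCTTTTCAGAGCCaccca
Hist1h1e: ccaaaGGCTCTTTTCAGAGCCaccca
Hist1h2be: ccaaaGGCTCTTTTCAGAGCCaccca
The stem of the H4 genes differed from that of the other families in its inner base pairs, and 7 of the 10 H4 genes with a stem-loop carried the form shown for Hist1h4c. The stem-loop began 29 bases after the coding region in Hist1h3b and 24 bases after it in Hist1h1c. The annotated transcript ended 51 bases after the stem-loop in Hist1h3b, 74 in Hist1h3c, 23 in Hist1h2ag and 454 in Hist1h4c. It ran on for 840 bases in Hist1h1c, 4884 bases in Hist1h1d, 1153 bases in Hist1h1e and 1861 bases in Hist1h2be. The gene lengths deposited with the counts were 1559 bases for Hist1h1c, but 743 for Hist1h1d and 747 for Hist1h1e. These 743 and 747 bases are fewer than the 7425 and 1930 of the annotated transcripts. Reads in those long ends may therefore be missing from the counts of Hist1h1d and Hist1h1e. Of the 21 members called lower that hold the stem-loop, 3 also had at least 500 bases after it, among them Hist1h2ac with 2010. Of the 11 members called neither lower nor higher that hold the stem-loop, likewise only 3 had at least 500 bases after it. Hist1h2bb and Hist1h2bk, for instance, had 23 and 30, so the 4 genes shown do not stand for all members that were not called lower. No stem-loop of this form was found in the annotated transcripts of Hist2h2be, which has 2192 bases after its coding region, and of Hist1h2bc, whose longest transcript has 2 exons.

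Many members cannot be told apart by reads of 51 bases, and this limits each count of members given here. Hist1h2bq and Hist1h2br had identical counts in all 10 samples, Hist1h4m and Hist1h4n in 9 of 10, and Hist1h2ao and Hist1h2ap in 7 of 10 with a largest difference of 2 counts. A chi-square statistic of the counts of 2 genes, averaged over the samples, was under 1 for 42 of the 344 pairs within a family. When such pairs were joined, the 57 members with enough counts for a test formed 34 groups of near-equal counts. The largest group held 10 Hist1h2a genes (Hist1h2ab to Hist1h2ae, Hist1h2ag to Hist1h2aj, Hist1h2ao and Hist1h2ap), the next 5 Hist1h4 genes and the third 4 Hist1h3 genes. In the transcripts, a median of 21.7% of the 51-base windows in the coding region belonged to no other gene among the members that fell, and 74.9% among those that rose. Only 14 members had at least 50% of these windows to themselves, and 11 of the 14 were tested. The counting rule is not given, so the same read may stand in the counts of several members, and sums over a family would then count it each time. Near-equal counts alone do not show shared reads where counts are few. Hist2h4 and Hist4h4, with at most 12 counts in any library, were joined although Hist4h4 shares 0% of its windows with other members. Hist1h2bq and Hist1h2br had 4264 counts each over all samples, and 97.3% of the windows of Hist1h2bq occur in Hist1h2br. Whether reads were counted for several genes was not tested.

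The members split by family across differentiation. In summed CPM, H3 genes stood at 43.4 and 55.9 in the 2 subconfluent libraries, at 38.9 and 38.9 in confluent cells, at 22.1 and 16 at 24 h, at 3.20 and 4.13 at 14 d and at 1.62 and 2.53 at 21 d. H4 genes stood at 23.9 and 30.8, 24.7 and 34.8, 18.5 and 13.8, 6.09 and 5.79, and 3.42 and 4.10 in the same order. Both families were lower in each 14 d and 21 d library than in any earlier one. H2A genes summed to 129.8 ± 13.3 CPM (SD, n = 2) in subconfluent cells and 54.4 ± 0.792 at 21 d, a smaller drop. H2B genes summed to 46.9 ± 5.45 CPM (SD, n = 2) in subconfluent cells, 42.0 ± 1.24 at confluence and 63.9 ± 1.60 at 21 d. H1 genes moved the other way, from 4.17 and 4.40 in subconfluent cells to 14.5 and 11 at 24 h, 19.1 and 19.3 at 14 d and 31.2 and 36.5 at 21 d. Most of the H1 sum came from Hist1h1c, on average 2.97 of 4.28 CPM in subconfluent cells and 29.3 of 33.8 CPM at 21 d. The ratio of the mean at 21 d to that in subconfluent cells was 7.90 for H1, 1.36 for H2B, 0.419 for H2A, 0.138 for H4 and 0.0419 for H3, given as a description without a test.

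**Figure D1:**
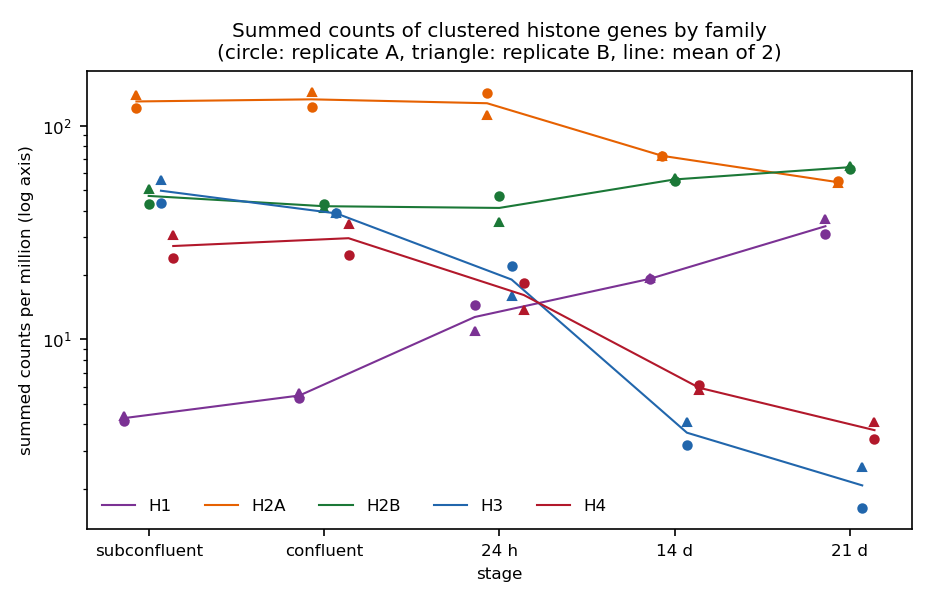
Summed CPM of the clustered histone genes of each family on a log axis at the 5 stages, with a circle for replicate A, a triangle for replicate B and a line through the mean of 2. H3 sums fell from 49.6 to 2.08 CPM on average between subconfluent cells and 21 d, while H1 sums went from 4.28 to 33.8 CPM.

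Mature against proliferating cells, 21 d against subconfluent, was the comparison used to sort the members into those that fell, those that rose and the others. Of the 57 members tested, 33 were called lower (edgeR quasi-likelihood test, Benjamini-Hochberg adjusted p under 0.05 and more than 2-fold), beside 11.3% of all 20808 genes tested, and 6 were called higher, beside 16.3% of all genes. The 33 fell into 14 groups of near-equal counts and the 6 into 6. Among the 11 tested members with mostly own sequence, 3 were called lower and 4 higher. The 3 were Hist1h4d and Hist1h4f, which form 1 group of near-equal counts, and Hist1h2aa, which had 1 count at 21 d. No H3 gene was in this set, since none had more than 34.35% own windows. The median log2 fold change was -1.41 over the 57 members, -0.40 with 1 member per group of near-equal counts and -0.37 over the 11 with mostly own sequence, beside 0.04 over all genes. By family it was -5.30 for H3, -2.87 for H4, -1.41 for H2A, 0.21 for H2B and 1.97 for H1. In each of the 33 members called lower, the stage means dropped from confluent to 14 d and again from 14 d to 21 d, and all 33 had their lowest mean at 21 d. These members were chosen for low values at 21 d, so a lowest mean there follows in part from the choice. Across all 5 stages, 43 of 57 members had an adjusted p under 0.05 in the F test, beside 48.9% of all genes.

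**Figure D2:**
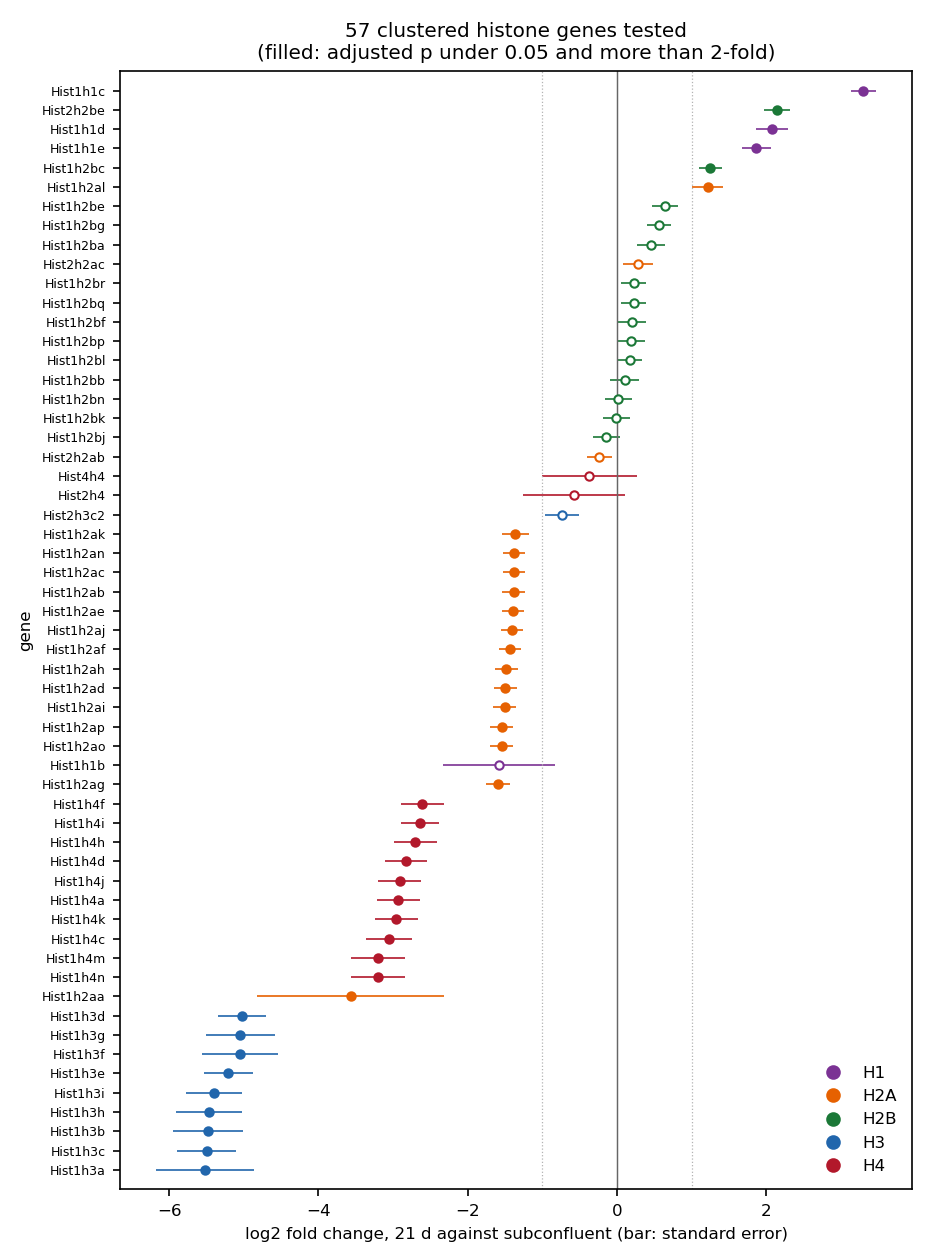
Log2 fold change between 21 d and subconfluent cells of the 57 members tested, with the standard error as a bar and 1 colour per family. Filled circles are called members, and the 9 Hist1h3 genes at the bottom lie between -5.52 and -5.02, apart from the 10 Hist1h4 genes between -3.20 and -2.61.

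All 9 Hist1h3 genes, which encode the replication-dependent H3 proteins, fell. Hist1h3c had 6.03 and 7.67 CPM in subconfluent cells, 5.39 and 5.19 in confluent cells, 2.89 and 2.09 at 24 h, 0.368 and 0.404 at 14 d and 0.0791 and 0.200 at 21 d. At 21 d the log2 fold change was -5.50 (SE 0.393, adjusted p = 3.48e-05), and the 2 groups did not overlap. Hist1h3e stood at 3.21 and 3.84 CPM in subconfluent cells and 0.0791 and 0.104 at 21 d, a log2 fold change of -5.21 (SE 0.327, adjusted p = 2.09e-05). Over all 9 genes, the counts at 21 d were between 1 and 23 per library, so that the size of the drop is known less well than its direction. Hist1h3a, Hist1h3b, Hist1h3h and Hist1h3i form 1 group of near-equal counts. Hist1h3a stood at 4.90 and 6.37 CPM in subconfluent cells and 0.0198 and 0.191 at 21 d, a log2 fold change of -5.52 (SE 0.655, adjusted p = 0.000370). Hist1h3b went from 5.43 and 6.95 CPM to 0.0594 and 0.191, with -5.48 (SE 0.473, adjusted p = 7.91e-05). Hist1h3h and Hist1h3i, with 0.0594 to 0.183 CPM at 21 d, had -5.47 and -5.40 (SE 0.445 and 0.376, adjusted p = 6.16e-05 and 3.08e-05). In each of these genes replicate A was the lower of both 21 d libraries. Hist1h3d went from 4.28 and 5.95 CPM to 0.119 and 0.183, with -5.02 (SE 0.325, adjusted p = 2.34e-05). Hist1h3f and Hist1h3g had 3.66 to 5.23 CPM in subconfluent cells and 0.0594 to 0.200 at 21 d, with -5.05 each (SE 0.512 and 0.467, adjusted p = 0.000172 and 0.000111). Without 21 d replicate B the fold changes (not in log2) of 7 of the 9 genes moved by over 1.5 times. Their log2 fold changes then lay between -8.07 for Hist1h3a and -6.07 for Hist1h3g, and without 21 d replicate A that of Hist1h3a was -4.87.

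Hist2h3c2, the H3 gene of the cluster on chromosome 3, was the exception in its family. It had 1.37 and 1.86 CPM in subconfluent cells, 0.569 and 0.606 at 14 d and 1.01 and 0.930 at 21 d. The change was -0.73 on the log2 scale at 21 d against subconfluent cells (SE 0.228, adjusted p = 0.0309), under 2-fold, and -1.19 at 14 d against confluent cells (SE 0.232, adjusted p = 0.00761), which was called. Of its 51-base windows 63.5% also occur in Hist2h3c1, which was not analysed here, so the values may hold reads of both.

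Of the 12 H4 genes, most of which encode an identical protein, the 10 Hist1h4 genes fell. Hist1h4i had 4.77 and 5.17 CPM in subconfluent cells, 5.68 and 6.93 in confluent cells, 4.12 and 2.69 at 24 h, 1.25 and 1.30 at 14 d and 0.673 and 0.904 at 21 d. Its log2 fold change was -2.64 (SE 0.257, adjusted p = 0.000140), and both 21 d libraries were below all 6 early libraries. Hist1h4d and Hist1h4f, the H4 genes of this cluster with over 50% own windows, had log2 fold changes of -2.83 and -2.61 (SE 0.280 and 0.289, adjusted p = 0.000154 and 0.000260). Both belong to 1 group of near-equal counts. Hist1h4m and Hist1h4n, which are nearly equal in counts, both went from 1.93 and 2.85 CPM in subconfluent cells to 0.178 and 0.322 at 21 d, with -3.20 each (SE 0.360 and 0.359, adjusted p = 0.000280 and 0.000276). Hist1h4c went from 2.28 and 3.14 CPM to 0.317 and 0.330, with -3.06 (SE 0.305, adjusted p = 0.000158). Hist1h4k had the highest mean RPKM of the family (read counts scaled by gene length and sequencing depth), from 11.5 and 15.4 RPKM in subconfluent cells to 1.56 and 1.61 at 21 d. Hist2h4 and Hist4h4, which lie outside the large cluster, were barely present, with at most 12 counts in any library and log2 fold changes of -0.57 and -0.37 (adjusted p = 0.602 and 0.857).

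The Hist1h2a genes, which encode the replication-dependent H2A proteins, fell less far. Over 13 of them, CPM ranged from 4.16 to 12 in subconfluent cells, from 4.11 to 12.1 in confluent cells, from 1.77 to 5.21 at 14 d and from 1.64 to 3.76 at 21 d. For Hist1h2ag the values were 10.2 and 12 CPM in subconfluent cells, 10.8 and 8.46 at 24 h, 5.21 and 5.09 at 14 d and 3.66 and 3.68 at 21 d. This was a log2 fold change of -1.59 (SE 0.163, adjusted p = 0.000178), and the others lay between -1.55 and -1.36. Hist1h2aj, annotated as an unprocessed pseudogene and in the group of 10 near-equal genes, had the highest mean RPKM of the H2A genes, from 40.3 and 46.1 in subconfluent cells to 15.1 and 14.9 at 21 d. Of its windows 93.1% occur in Hist1h2ai, so its value cannot be assigned to its locus. Hist1h2aa, a gene known from testis, was called lower on 17 counts in both subconfluent libraries together and 1 count at 21 d (adjusted p = 0.0475). Its ratio of 0.0744 has a 95% exact interval for counting error from 0.00178 to 0.475, and DESeq2 gave an adjusted p of 0.0754. The call was lost in 11 of 18 alternatives, among them no filter, the replicate block and either subconfluent library left out.

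H2A genes of the cluster on chromosome 3 did not pass the test in this comparison. Hist2h2ac had 2.30 and 2.46 CPM in subconfluent cells, 6.28 and 4.38 at 24 h and 2.91 and 2.86 at 21 d, with a log2 fold change of 0.28 at 21 d (SE 0.203, adjusted p = 0.293). Hist2h2ab had 1.47 and 1.55 CPM in subconfluent cells, 2.69 and 2.15 at 24 h and 1.33 and 1.24 at 21 d, with -0.23 (SE 0.173, adjusted p = 0.298). Both had their highest mean at 24 h. Of the windows of Hist2h2ab and Hist2h2ac, 64.7% and 53.0% also occur in genes outside the members. Hist2h2ac further shares 28.1% with Hist2h2aa1, which was not analysed here, so the values of both may hold reads of other genes.

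Among the 6 members that rose were 3 of the 4 linker histone genes tested. Hist1h1c (chr13:23738808-23740367, GRCm38, plus strand, 1 exon), which encodes the linker histone H1.2, had 2.97 and 2.98 CPM in subconfluent cells, 3.93 and 4.30 in confluent cells, 12.7 and 9.31 at 24 h, 16.6 and 16.6 at 14 d and 26.9 and 31.7 at 21 d. The libraries of each later stage lay above those of each earlier stage. Its log2 fold change was 3.30 (SE 0.170, adjusted p = 1.04e-05), a 9.86-fold rise. Hist1h1d, which encodes H1.3, went from 0.416 and 0.496 CPM to 1.88 and 1.94, with a log2 fold change of 2.07 (SE 0.214, adjusted p = 0.000188). Hist1h1e, which encodes H1.4, went from 0.633 and 0.785 CPM to 2.43 and 2.72, with 1.87 (SE 0.191, adjusted p = 0.000176). The 3 genes carry 78.4%, 74.0% and 74.9% own windows in their coding regions. Per length, Hist1h1c stood at 2.98 RPKM in both subconfluent libraries and at 24.9 and 29.3 at 21 d, against 3.65 and 3.75 for Hist1h1d and 4.71 and 5.24 for Hist1h1e at 21 d.

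Hist1h1b, the gene of H1.5, had 23 and 7 counts in subconfluent cells and 2 and 6 at 21 d, or 0.143 and 0.145 CPM against 0.0396 and 0.0522. Its log2 fold change of -1.58 did not pass the test (SE 0.752, adjusted p = 0.119). Hist1h1t, the testis-specific H1 gene, had at most 3 counts in any library, and Hist1h1a was listed at 0 in all 10 samples. These 2 genes, Hist3h2ba and Hist3h2bb-ps did not have enough counts for a test.

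The other 3 members that rose were 2 H2B genes and 1 H2A locus. Hist2h2be (chr3:96221119-96223738, GRCm38, plus strand), whose windows occur in no other gene, had 0.987 and 0.785 CPM in subconfluent cells, 1.29 and 1.40 in confluent cells, 1.58 and 1.53 at 24 h, 2.22 and 2.54 at 14 d and 3.98 and 3.94 at 21 d. Its log2 fold change was 2.15 (SE 0.176, adjusted p = 6.44e-05), and the libraries of each later stage lay above those of each earlier stage. Hist1h2bc (chr13:23684199-23692908, GRCm38, plus strand) had the highest mean RPKM of the H2B genes and went from 4.87 and 5.60 CPM in subconfluent cells to 10.8 and 10.4 at 14 d and 12.3 and 12.6 at 21 d. The rise was 1.25 on the log2 scale (SE 0.157, adjusted p = 0.000487), although 97.3% of the windows in its coding region also occur in other members. Hist1h2al, annotated as a processed pseudogene on chromosome 13 outside the main cluster, had 2.29 and 2.42 CPM in subconfluent cells, 11.4 and 7.59 at 24 h, 5.76 and 5.81 at 14 d and 5.66 and 5.26 at 21 d, and differed from the other 5 by its peak at 24 h. At 21 d it had a log2 fold change of 1.22 (SE 0.205, adjusted p = 0.00211). Of its windows 64.7% occur in Hist2h2aa1, which was not analysed here, so this rise cannot be assigned to its locus.

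**Figure D3:**
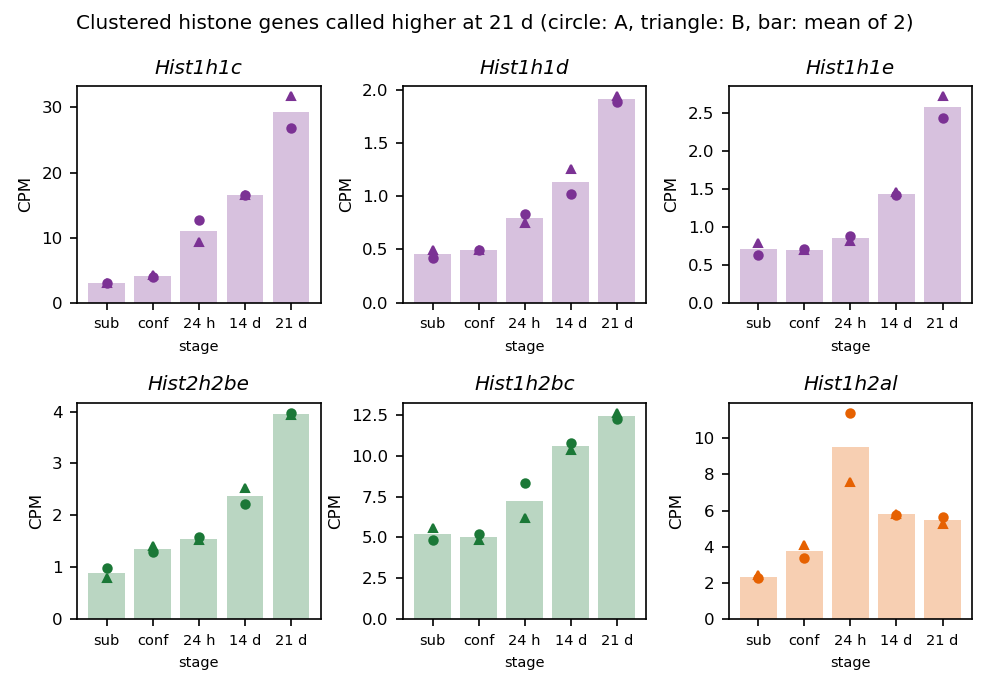
CPM at each stage for the 6 members called higher at 21 d than in subconfluent cells, with a circle for replicate A, a triangle for replicate B and a bar for the mean of 2. In 5 of the 6 the highest mean is at 21 d, and Hist1h2al peaks at 24 h.

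The remaining 12 H2B genes neither fell nor rose by the rule. Their CPM ranged from 1.40 to 4.84 in subconfluent cells, from 1.27 to 4.03 at 24 h and from 1.80 to 5.74 at 21 d. Hist1h2be had 2.85 and 3.47 CPM in subconfluent cells and 4.95 and 4.89 at 21 d, with a log2 fold change of 0.64 (SE 0.176, adjusted p = 0.0189), and Hist1h2bg had 0.56 (SE 0.162, adjusted p = 0.0227), both under 2-fold. The other 10 lay between -0.14 and 0.46 and had adjusted p values of at least 0.0830. Hist1h2be spans chr13:23583670-23621124 on the minus strand and overlaps Hist1h1e, with which 10.0% of its windows are held in common. Hist1h2ba, known from testis, shares 38.0% of its windows with Hist1h2bj, and its 1.40 and 1.43 CPM in subconfluent cells and 1.80 and 2.08 at 21 d may hold reads of other H2B genes. In the coding regions of these 12 genes, 38.0% to 100% of the windows also occur in other members. Hist1h2bg shares 44.9% of its windows with the rising Hist1h2bc. The values of the 12 genes may thus hold reads of other H2B genes, Hist1h2bc among them.

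Many H2A and H2B genes stand in divergent pairs that start from 1 short interval, which allows a comparison of neighbours. There were 12 such pairs, with 5′ ends 176 to 306 bases apart. In 11 of the 12 the H2A gene was called lower and the H2B gene was not, or in 10 of 11 without the pair of Hist1h2aa, whose call on 1 count at 21 d was lost in most alternatives. Over all members tested, 14 of 17 H2A genes and 0 of 14 H2B genes were called lower, so the pairs largely repeat the split by family. In the pair Hist1h2ac and Hist1h2bc, 251 bases apart, the H2A gene fell with a log2 fold change of -1.38 (SE 0.150, adjusted p = 0.000236) and the H2B gene rose with 1.25. In the pair Hist2h2ac and Hist2h2be, 239 bases apart, the H2A gene was at 0.28 and the H2B gene rose with 2.15. Hist1h2ac belongs to the group of 10 near-equal H2A genes, and its counts may hold reads of that group. Hist2h2ac and the H2B genes of the pairs other than Hist2h2be also share windows with other genes, so their values may not be those of their loci alone. The difference between the 2 genes of a pair was not tested, and the pairs are not independent, since 8 of the 12 H2A genes have near-equal counts.

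**Figure D4:**
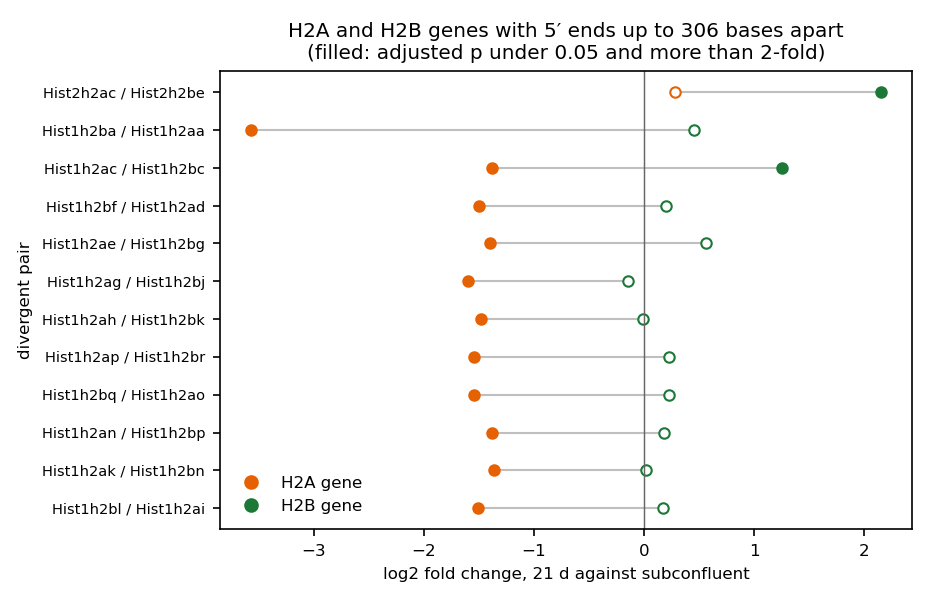
Log2 fold change between 21 d and subconfluent cells for the H2A gene and the H2B gene of 12 divergent pairs, joined by a line, with filled circles for called genes. In each pair the H2A gene lies to the left of the H2B gene, also in the topmost pair, where they stand at 0.28 and 2.15.

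The promoter windows of both pairs that hold a rising H2B gene are shown beside those of Hist1h1c, which rose, and of Hist1h3h and Hist1h4c, which fell. They run from 250 bases before to 50 after the start in RefSeq (GRCm38.p6) and are written along the named gene's strand. Capitals mark TATAAA, the CCAAT box, the octamer ATTTGCAT known from H2B promoters and the AAACACA box known from H1 promoters, each searched on both strands with overlaps allowed. The windows of Hist1h2ac and Hist2h2ac span the whole interval to Hist1h2bc and Hist2h2be.
Hist1h2ac (chr13:23683910-23684209, minus strand): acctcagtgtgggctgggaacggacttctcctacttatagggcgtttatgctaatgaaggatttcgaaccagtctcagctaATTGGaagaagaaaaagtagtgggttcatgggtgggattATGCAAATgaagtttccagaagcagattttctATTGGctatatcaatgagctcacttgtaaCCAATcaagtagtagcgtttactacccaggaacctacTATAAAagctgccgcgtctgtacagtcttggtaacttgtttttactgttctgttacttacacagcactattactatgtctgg
Hist2h2ac (chr3:96220831-96221130, minus strand): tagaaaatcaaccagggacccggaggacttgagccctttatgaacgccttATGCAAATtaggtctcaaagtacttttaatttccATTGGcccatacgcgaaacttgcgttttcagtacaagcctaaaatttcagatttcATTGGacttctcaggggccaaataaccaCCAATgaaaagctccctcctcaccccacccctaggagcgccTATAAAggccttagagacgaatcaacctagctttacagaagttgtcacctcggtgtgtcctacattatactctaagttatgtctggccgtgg
Hist1h1c (chr13:23738557-23738856, plus strand): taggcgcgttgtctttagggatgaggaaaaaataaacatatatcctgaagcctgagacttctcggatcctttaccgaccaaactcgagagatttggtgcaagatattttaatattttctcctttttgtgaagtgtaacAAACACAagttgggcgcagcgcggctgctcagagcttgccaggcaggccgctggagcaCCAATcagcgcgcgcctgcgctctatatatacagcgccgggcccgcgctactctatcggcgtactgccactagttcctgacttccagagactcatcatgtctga
Hist1h3h (chr13:21717378-21717677, plus strand): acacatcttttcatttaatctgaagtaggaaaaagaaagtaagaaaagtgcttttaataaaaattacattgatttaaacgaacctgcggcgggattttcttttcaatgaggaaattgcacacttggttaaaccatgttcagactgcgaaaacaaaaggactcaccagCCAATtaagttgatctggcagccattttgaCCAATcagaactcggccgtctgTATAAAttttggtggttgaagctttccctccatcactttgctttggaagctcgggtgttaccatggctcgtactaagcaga
Hist1h4c (chr13:23698409-23698708, minus strand): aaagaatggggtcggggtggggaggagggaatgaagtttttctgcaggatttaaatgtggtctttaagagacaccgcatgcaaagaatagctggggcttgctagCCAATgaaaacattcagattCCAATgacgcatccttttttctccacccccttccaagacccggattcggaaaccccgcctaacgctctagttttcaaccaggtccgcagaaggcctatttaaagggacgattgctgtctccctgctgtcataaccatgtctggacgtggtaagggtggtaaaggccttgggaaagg
A promoter sequence was found for 53 of the 61 members. The CCAAT box stood in all 6 H1 windows, all 15 of H2A, all 13 of H2B and all 8 of H3 but in 3 of 11 of H4, beside 37.4% of the 32851 promoters in the table. The octamer stood in 6 H2A and 4 H2B windows and in none of H1, H3 or H4, beside 1.74% of all promoters. Windows of both genes of a divergent pair overlap, so the same motif can be counted for both, as the octamer is in Hist1h2ah and Hist1h2bk. The AAACACA box stood in 5 of the 6 H1 windows, in 2 of H2A and in 1 of H2B, beside 7.18% of all promoters. By direction, TATAAA stood in 20 of 30 windows of members called lower, 2 of 3 of those called higher and 10 of 17 of the others, and 13.6% of all promoters hold it. The AAACACA box of the H1 windows was held both by the 3 genes that rose and by Hist1h1b and Hist1h1t. A match is a description of these letters only.

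The annotated 3′ ends differed between members that fell and members that rose, by counts without a test. At least 20 bases follow the coding region in the annotation of 23 of the 33 members called lower, and 21 of the 33 hold the stem-loop there. Of the 6 called higher, 5 have such bases and 3 hold the stem-loop (Hist1h1c, Hist1h1d and Hist1h1e). At least 500 bases follow the coding region in 4 of the 33 called lower, 5 of the 6 called higher and 5 of the 18 others. An AATAAA, the usual polyadenylation signal, stands in the last 50 bases of 3 of 33, 2 of 6 and 6 of 18. The deposited gene lengths of Hist1h1d, Hist1h1e and Hist1h2ac, 743, 747 and 475 bases, are shorter than their annotated transcripts. Reads in the rest of those ends may be missing from the counts. A list of 9 clustered histone genes known to give polyadenylated mRNAs was set with these results known, and 7 of the 9 were tested. Of these, Hist1h1c, Hist2h2be and Hist1h2bc were called higher, Hist1h2ac and Hist1h4h (log2 fold change -2.70, SE 0.288, adjusted p = 0.000215) were called lower, and Hist1h2be and Hist4h4 were not called.

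Before the medium was changed, the step from subconfluent to confluent cells brought no call among the members. By edgeR 0 of 57 were called in either direction, beside 1.43% of all genes, and 3 had an unadjusted p under 0.05. DESeq2 and limma-trend on RPKM also called 0. The H3 genes had a median log2 fold change of -0.36 and the H4 genes one of 0.07. The 30 genes of an S-phase and division list, which includes replication factors and cyclins, had a median of -0.45, with 0 of 30 called.

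During the first 24 h in differentiation medium, 2 members were called higher, beside 1.76% of all genes. Hist1h1c rose with a log2 fold change of 1.42 (SE 0.159, adjusted p = 0.00488) and Hist1h2al with 1.34 (SE 0.203, adjusted p = 0.0142). By edgeR 0 members were called lower, beside 0.365% of all genes, while 23 members had an unadjusted p under 0.05 in either direction. The 10 H3 genes had a median of -1.06 and the 12 H4 genes one of -0.89. DESeq2 called 10 members lower, 8 Hist1h3 genes, Hist1h4d and Hist1h4f, with log2 fold changes between -1.12 and -1.001, and limma-trend called 0. The replicates at 24 h lay far apart, with H3 sums of 22.1 and 16 CPM, and replicate A was above replicate B in the sum of each family.

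Between confluent cells and 14 d, 27 members were called lower, beside 3.85% of all genes, and 4 higher, beside 9.15%. The 27 comprised all 10 H3 genes, 10 H4 genes and 7 Hist1h2a genes. The H3 genes had a median of -3.62 and the H4 genes one of -2.32. Hist1h3c fell with -3.78 (SE 0.357, adjusted p = 0.000374) and Hist1h4i with -2.31 (SE 0.252, adjusted p = 0.000683). The 4 members called higher were Hist1h1c with 2.01 (SE 0.162, adjusted p = 0.000201), Hist1h1d with 1.19, Hist1h2bc with 1.07 and Hist1h1e with 1.04 (adjusted p = 0.00506, 0.00228 and 0.00545).

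From 14 d to 21 d, within 1 library set, 1 member was called lower, beside 2.45% of all genes, and by edgeR 0 higher, beside 1.52%. This was Hist1h3i, with a log2 fold change of -1.48 (SE 0.359, adjusted p = 0.0441) on 48 and 18 counts at 14 d and 4 and 21 at 21 d, and a fit of these 2 stages alone called 0. Unadjusted p was under 0.05 for 32 members, while DESeq2 called 4 members lower and limma-trend 0, and neither called a member higher. Hist1h1c, Hist1h1e and Hist2h2be had adjusted p values under 0.05 below 2-fold, with log2 fold changes of 0.82, 0.84 and 0.74 (SE 0.156, 0.184 and 0.169, adjusted p = 0.0175, 0.0305 and 0.0364).

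The H3 and H4 sums can be set beside the S-phase and division list stage by stage. Relative to the mean of confluent cells, the summed list stood at 73.4% and 76.0% at 24 h, 55.1% and 53.5% at 14 d and 17.9% and 21.1% at 21 d. The H3 sum stood at 56.8% and 41.2%, 8.22% and 10.6%, and 4.17% and 6.51% at these stages, and the H4 sum at 62.0% and 46.4%, 20.5% and 19.5%, and 11.5% and 13.8%. Between confluent cells and 14 d, 11 of 30 list genes were called lower with a median of -0.87, beside 3.85% of all genes. Between 14 d and 21 d 25 of 30 were called lower with a median of -1.69, beside 2.45% of all genes. Mki67, a marker of cycling cells, had 175.1 and 164.0 CPM in confluent cells, 84.1 and 128.4 at 24 h, 110.1 and 100.7 at 14 d and 24.1 and 31.1 at 21 d. At 24 h this was 49.6% and 75.7% of the confluent mean, a range that holds both 14 d values of 64.9% and 59.4%. The difference in timing between the list and the histone sums was not tested, and the H3 and H4 members with near-equal counts are not independent. In bulk samples fewer cycling cells and less RNA per cell cannot be told apart.

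**Figure D5:**
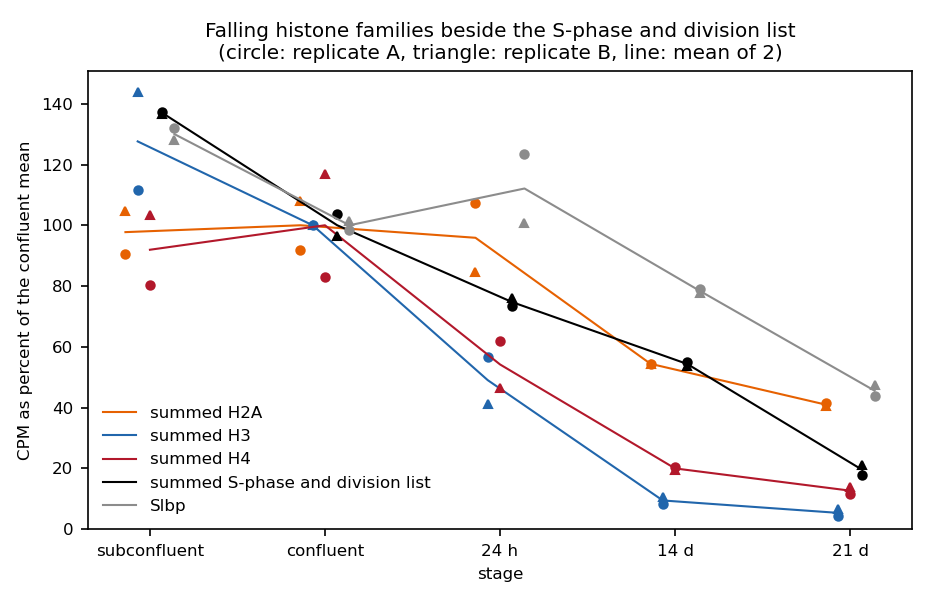
CPM as percent of the confluent mean for the summed H2A, H3 and H4 genes, the summed S-phase and division list and Slbp at the 5 stages, with a circle for replicate A and a triangle for replicate B. At 14 d the mean of the H3 sum was at 9.42% and that of the H4 sum at 19.97%, while that of the S-phase and division list was at 54.3%.

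At 21 d against subconfluent cells all 30 genes of the S-phase and division list were called lower, beside 11.3% of all genes, with a median log2 fold change of -3.00. Mcm10, Ccne1 and Mcm5 had the largest drops at -4.33, -4.24 and -4.12, and Ccne2, Prim1 and Rrm1 the smallest at -1.80, -1.98 and -1.98. Of 17 genes for histone mRNA transcription and 3′ processing, 4 were called lower and 0 higher in edgeR, beside 11.3% and 16.3% of all genes. Their median was -0.65. The 4 called lower were Slbp with -1.51 (SE 0.109, adjusted p = 3.59e-05), Eri1, an exonuclease that trims histone mRNA ends, with -1.51, Cpsf2, a cleavage factor subunit, with -1.16 and Casp8ap2 with -1.13. Npat, the coactivator of histone gene transcription, had -0.88 (adjusted p = 0.0277), under 2-fold. Slbp had 62.2 and 60.3 CPM in subconfluent cells, 46.4 and 47.8 in confluent cells and 58.2 and 47.4 at 24 h. It then stood at 37.2 and 36.6 at 14 d and 20.6 and 22.3 at 21 d.

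Of 18 histone chaperone genes 9 were called lower and 0 higher, beside 11.3% and 16.3% of all genes, with a median of -1.02. Asf1b, Chaf1a and Chaf1b, which deposit H3 and H4 on newly made DNA, had -3.86, -3.02 and -3.01, while Hjurp, Supt16 and Ssrp1 had -1.31, -1.16 and -1.05. Hira, which deposits H3.3 outside replication, had -0.998 and was not called. Of 11 variant histone genes outside the clusters, 4 were called lower (Cenpa with -2.84, H2afz with -2.14, H1fx with -1.84 and H2afx with -1.19) and 0 higher, beside the same shares of all genes, with a median of -0.60. H3f3b, which encodes H3.3, had 363.5 and 356.3 CPM in subconfluent cells and 429.3 and 409.6 at 21 d, a log2 fold change of 0.22 (SE 0.127, adjusted p = 0.189). H1f0, a linker histone gene known from differentiated cells, had 305.9 and 322.2 CPM in subconfluent cells and 282.3 and 300.4 at 21 d, a log2 fold change of -0.11 (SE 0.0887, adjusted p = 0.349). The rise of linker histone counts in these libraries was in Hist1h1c, Hist1h1d and Hist1h1e, while H1f0 did not pass the test and H1fx fell.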

How the data were processed

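RNA of MC3T3-E1 cells at 5 stages of osteoblast differentiation, with 2 replicates each, had been sequenced as 51 bp paired-end reads. TopHat2 2.0.9, R 3.0.1, FastQC and the mm10 build are named in the submitters' processing notes. The counting tool, the annotation release, strandedness and poly(A) selection are not given in the sources used here. The authors deposited raw read counts of 40620 genes and RPKM values, the same counts scaled by gene length and sequencing depth. For 2 samples sequenced in 2 lanes the deposited merged count was used. Total counts per sample ran from 44736156 to 162939333, and precision at low levels is set by the counts given.

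Identifiers were matched to GENCODE vM21, and samples were grouped by their labels. Counts were fitted in edgeR 4.0.16 (R 4.3.3) with filterByExpr, which kept 20808 genes, TMM scaling and a quasi-likelihood model over all 10 samples, with Benjamini-Hochberg adjustment over all genes tested. Genes past 2-fold with an adjusted p under 0.05 were called. The standard error of each log2 fold change was its absolute value over the square root of its F statistic. The fits were tested on simulated data. Windows of 51 bases of all transcripts were compared between genes, and promoters came from RefSeq (GRCm38.p6). The members named by rule were the 12 largest falls and rises at 21 d among called members with a mean of at least 1 CPM, the member with the highest mean RPKM of each family, a list of polyadenylated members, and for other lists the 3 lowest and 3 highest called genes with Mki67, Slbp, H3f3b and H1f0. Members outside this rule, among them Hist1h1b, Hist1h1d, Hist1h2aa, Hist1h2ag, Hist1h4d, Hist1h4i, Hist2h2ab, Hist2h2ac, Hist2h3c2, Npat and Hira, were named after their values were seen. The members and lists were chosen with earlier results of these data known.

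The alternatives were DESeq2 size factors, library size alone, DESeq2 1.42.0, a minimum of 10 counts per sample or no filter, the 2 groups alone, a fit without 24 h samples, a block for the replicate letter, limma-trend (limma 3.58.1) on log2(RPKM + 1) and log2(RPKM + 0.1), other fold thresholds, the sum of the 2 lanes, and each replicate left out in turn. Counting 1 member per group of near-equal counts, and members with at least 50% own windows, were added after the data were examined.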

Additional observations from a re-analysis of the deposited data

How the results depend on the processing

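Of the 23 members named by the rule, 22 kept their direction and their side of the 2-fold threshold at 21 d against subconfluent cells under all alternative fits that gave a value. Hist4h4, with at most 12 counts per library, lay between -0.97 and 0.12 with 1 library left out, changing sign to 0.12 without subconfluent replicate B. Other fold thresholds were not part of this count, and at more than 4-fold Hist1h1e, Hist1h2bc and Hist1h2al were among those no longer called. The counts of calls in this comparison moved more with what was counted than with how. Members called lower were 33, but 21 with a minimum of 10 counts per sample (42 members tested), 20 at more than 4-fold, 14 with 1 member per group of near-equal counts and 3 among those with at least 50% own windows, and 32 to 34 with 1 library left out. Members called higher were 6 with any library left out and 3 at more than 4-fold.

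At 14 d against confluent cells, members called lower went from 27 to 15 with a minimum of 10 counts per sample, 12 with 1 member per group and 2 with own windows, and from 21 to 33 with 1 library left out. Those called higher went from 4 to 1 with library size alone, with limma-trend under both pseudocounts and at more than 4-fold, and to 7 at any fold change. At 24 h against confluent cells, members called lower went from 0 to 5 with library size alone and 10 with DESeq2, and from 0 to 3 with 1 library left out, with 3 only without 24 h replicate A. Those called higher went from 2 to 0 with the 2 groups alone and at more than 4-fold, to 1 with own windows, and from 0 to 3 with 1 library left out, with 0 without confluent replicate A and 1 without confluent replicate B. At 21 d against 14 d, members called lower went from 1 to 0 with a minimum of 10 counts per sample, the 2 groups alone, limma-trend under both pseudocounts, more than 4-fold and both ways of counting members, to 4 with DESeq2 and to 5 without the 24 h samples. With 1 library left out it went from 0 to 5, with 5 without either 24 h library or 21 d replicate B and 0 without each of the other 7, and those called higher went from 0 to 3 at any fold change. The cause of these shifts was not tested, other than fewer members tested or counted where this is stated.

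The replicate letters do not pair the samples, since deviations of same-lettered samples correlated between -0.328 and 0.168 across pairs of stages. With the letter as a block, members called lower at 21 d against 14 d went from 1 to 0, 32 in place of 33 were called lower at 21 d against subconfluent cells, and no other count moved by over 1.5 times. The ratio of summed values at 21 d to subconfluent cells was 7.07 for H1, 0.376 for H2A and 1.22 for H2B by library size alone, and 6.26 for H1, 1.16 for H2B and 0.0300 for H3 from summed RPKM, against 7.90, 0.419, 1.36 and 0.0419 for H3. With a pseudocount of 1 on RPKM, limma-trend gave the 9 Hist1h3 genes log2 fold changes between -4.05 and -2.71, and without 21 d replicate B edgeR gave between -8.07 and -5.42, against -5.52 to -5.02. Depth limits members with few counts at 21 d, among them these 9 with 1 to 23 per library, Hist1h1b with 2 and 6 and Hist1h2aa with 1 and 0.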
